A study of Mus musculus with 12 samples.

Results

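The 10 genes described here, Ankrd1, Ankrd2, Ankrd23, Csrp3, Xirp1, Flnc, Klhl40, Klhl41, Rrad and Tnfrsf12a, encode proteins of sarcomere maintenance and of the response of muscle to mechanical strain. They were taken from a list of names, and the probeset of each was selected on its mean level over all 12 arrays, as the brightest of those annotated to that symbol alone. Each gene had exactly 1 such probeset, so its values decided nothing. They are 10 of 22180 genes measured and all 10 were among the 13308 genes tested. The genes were listed with earlier results of these arrays known, so their number past a threshold is a description and is not independent evidence about genes of this kind.

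The sarcomere is the contractile unit of striated muscle, bounded by Z-discs where actin filaments and the giant spring protein titin are anchored. Proteins at the Z-disc, at the titin spring and at the costamere, which ties the Z-disc to the membrane, are known to respond to stretch, and some of them also reach the nucleus. Several of the genes studied here are known as early transcripts of loaded, injured or denervated muscle.

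Gastrocnemius, a calf muscle used in running, came from male FVB mice, as labelled, aged 2 to 3 months. They were wild type or ERRα-null, without the product of Esrra, the estrogen-related receptor α, a nuclear receptor that controls mitochondrial genes. Mice were either sedentary or sampled 2 h after a treadmill run to exhaustion, and each of the 4 groups holds 3 biological replicates, 1 Affymetrix Mouse Gene 2.0 ST array each. The labels do not say whether exercised and sedentary mice were littermates, and they name no tissue restriction of the null allele, so effects in muscle fibres and elsewhere cannot be told apart. Values are log2 expression, so a difference of 1 is a doubling; a probeset's level was not set against that of another gene. Differences were tested with limma over all 13308 genes and called at an adjusted p under 0.05 (Benjamini-Hochberg); the p-values measure the spread between these arrays.

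The arrays were alike, with medians of 5.15 to 5.26 and correlations between arrays of 0.97 to 0.987. Esrra read 7.41 to 7.63 on wild-type and 6.55 to 6.89 on null arrays, which do not overlap. For the sedentary null and the exercised wild-type groups the source label names the opposite state from the titles and descriptions; groups follow the titles. On 3 exercised arrays labelled male (wild type replicate 3, null replicates 2 and 3) Xist read 7.82 to 7.90, a female profile. Muscle fibre markers averaged 12.82 to 12.97 on every array, and heart markers averaged 5.83 to 6.24. Of the heart list, the atrial peptide gene Nppa read 5.6 to 6.07 and the actin gene Actc1 8.43 to 11.18. Transcripts of other tissues varied: on sedentary arrays the mean of the liver list ran from 5.33 to 9.53, of the fat list from 6.74 to 9.89 and of the lymphocyte list from 5.52 to 8.40, against 5.55 to 7.57, 7.09 to 7.90 and 5.27 to 5.92 on exercised arrays. In whole muscle, fewer cells of a type and less RNA per cell cannot be told apart.

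The first question was how running changed these genes in wild-type muscle. After the run, 7 of the 10 were higher: Ankrd1, Tnfrsf12a, Rrad, Xirp1, Klhl40, Flnc and Csrp3, with differences from 3.28 for Ankrd1 down to 1.04 for Csrp3 on the log2 scale. Of all genes tested, 2.22% were called higher. Ankrd2 was 0.77 higher with an adjusted p of 0.0849, and Klhl41 and Ankrd23 were 0.18 and 0.05 higher, also short of the threshold. The median difference of the 10 was 1.46, beside -0.01 for all genes tested.

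In ERRα-null muscle 5 of the 10 were called higher, Ankrd1, Tnfrsf12a, Xirp1, Klhl40 and Flnc, where 0.383% of all genes tested were. The median was 1.21, beside -0.01 for all genes tested. Within the genotypes the exercised arrays lay above the sedentary ones for 8 of the 10 in wild type and 9 in null muscle, as they did for 10% and 8.99% of all genes tested. Averaged over genotypes, 8 were called higher, with Ankrd2 joining those of the wild type, where 3.14% of all genes tested were. Arrays of the exercised and sedentary states did not overlap, across 6 arrays each, for 7 of the 10, where 1.99% of all genes tested stood apart in that direction. All 10 estimates were positive in each of these 3 comparisons. The count in null muscle moved with the fit: it was 2 with scores of liver, fat and lymphocyte markers, 2 once the 3 arrays of female profile were left out, so that a lone exercised null array was assumed to vary like the others, and 0 when null arrays alone were fitted in blocks of equal replicate number. The averaged count was 6 with the tissue scores and 6 without the arrays of female profile.

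**Figure D1:**
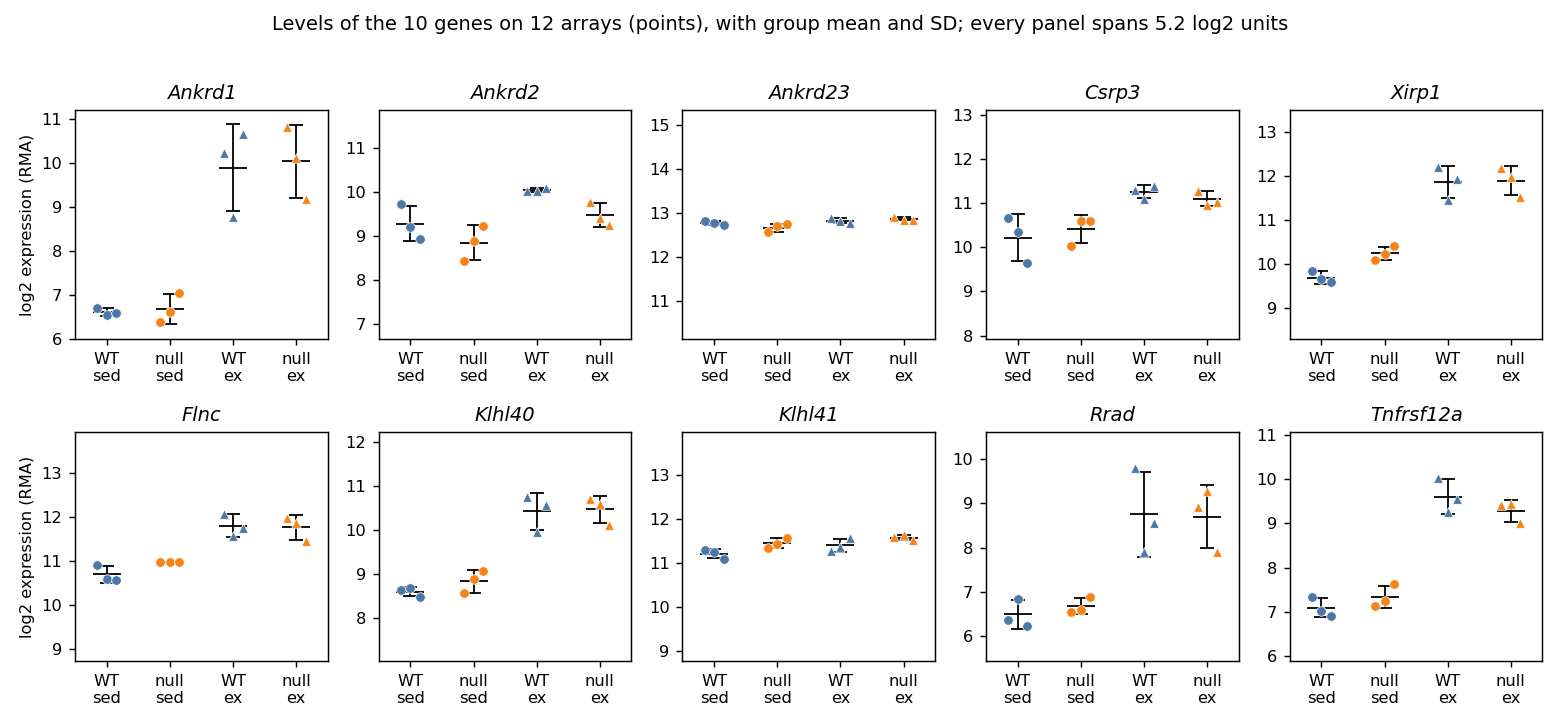
Log2 expression (RMA, vertical axis) of each of the 10 genes on each of 12 arrays (points) in the 4 groups, with group mean and SD (bars, n = 3); every panel spans the same number of log2 units. Ankrd1, Tnfrsf12a, Rrad, Xirp1, Klhl40, Flnc and Csrp3 stand higher on every exercised array than on any sedentary array, whereas Ankrd23 stays between 12.57 and 12.90.

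Ankrd1, Ankrd2 and Ankrd23 encode the muscle ankyrin repeat proteins, which bind the titin spring and are also found in the nucleus. Ankrd1, also called cardiac ankyrin repeat protein, read 6.71, 6.55 and 6.58 in sedentary wild-type, 6.38, 6.61 and 7.05 in sedentary null, 10.23, 8.78 and 10.66 in exercised wild-type and 10.81, 10.11 and 9.17 in exercised null mice. The lowest exercised array lay well above the highest sedentary one, and the exercised arrays of each genotype were widely spread. The difference was 3.28 ± 0.45 (SE) in wild type, or 9.7-fold with a 95% interval of 4.94 to 19.1 and an adjusted p of 0.00154, and 3.35 ± 0.45 in null muscle, or 10.2-fold with an adjusted p of 0.00424. It ranked 4 of 13308 from the highest in wild type and 1 in null muscle. With scores of liver, fat and lymphocyte markers in the fit the estimates were 3.08 and 3.17, with adjusted p of 0.0642 and 0.117.

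Ankrd2, whose protein is known from slow fibres and stretched muscle, read 9.71, 9.19 and 8.92 in sedentary wild-type, 8.42, 8.89 and 9.22 in sedentary null, 10.02, 10.02 and 10.08 in exercised wild-type and 9.77, 9.41 and 9.24 in exercised null mice. Within each genotype the exercised arrays lay above the sedentary ones, but the exercised null arrays overlapped the range of sedentary wild type. The differences of 0.77 ± 0.22 and 0.63 ± 0.22 were not called in either genotype (adjusted p 0.0849 and 0.233), and the average of 0.70 ± 0.15 was (adjusted p 0.0184). Without sedentary wild type replicate 1, which had the highest sedentary value, the wild-type difference was 0.99 with an adjusted p of 0.0274. The averaged call was lost with the tissue scores, at 0.37 and an adjusted p of 0.411, and when the 3 arrays of female profile were dropped, at 0.84 and an adjusted p of 0.113.

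Ankrd23, also called diabetes-related ankyrin repeat protein, read between 12.57 and 12.90 on all 12 arrays. The difference was 0.05 ± 0.05 in wild type (95% interval -0.07 to 0.17, adjusted p 0.699) and 0.19 ± 0.05 in null muscle (0.08 to 0.31, adjusted p 0.143). Among the 3 ankyrin repeat genes the wild-type estimates thus ran from 0.05 to 3.28.

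The promoters of Ankrd1 and Ankrd23 are shown because both carry an M-CAT element, the letters known to be bound by TEAD factors of the stretch-regulated Hippo pathway, although their wild-type estimates were 3.28 and 0.05. RefSeq sequences (GRCm38.p6) of the 250 bases before each start were at hand for 8 of the 10 genes, in 11 windows, and were searched on both strands. Capitals mark the M-CAT letters CATTCC, which read GGAATG where they lie on the other strand. The Ankrd1 window is chr19:36119845-36120094 and the Ankrd23 window chr1:36535740-36535989, both of the minus strand.
Ankrd1: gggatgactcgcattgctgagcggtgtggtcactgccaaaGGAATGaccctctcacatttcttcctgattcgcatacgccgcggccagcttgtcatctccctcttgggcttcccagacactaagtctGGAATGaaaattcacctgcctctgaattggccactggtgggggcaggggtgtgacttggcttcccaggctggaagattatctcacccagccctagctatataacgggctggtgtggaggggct
Ankrd23: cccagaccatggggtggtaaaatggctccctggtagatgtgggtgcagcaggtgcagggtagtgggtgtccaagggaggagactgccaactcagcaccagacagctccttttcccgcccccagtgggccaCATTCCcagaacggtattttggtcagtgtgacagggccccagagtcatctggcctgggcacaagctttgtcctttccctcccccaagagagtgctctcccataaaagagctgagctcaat
Ankrd1 has the element 210 to 205 and again 123 to 118 bases before the start, and Ankrd23 has it 120 to 115 bases before 1 of its 2 starts. It was present in 3 of the 8 genes, Flnc being the third. By window it was in 3 of the 11, and in 12.6% of all 32851 promoter windows. The E-box CANNTG was present in 7 of the 8 genes, in 8 of the 11 windows and in 66.2% of all windows. The CArG box of SRF, the cyclic AMP element TGACGTCA and the ERR element TNAAGGTCA were in none of the 11 windows, and in 1.47%, 1.55% and 1.14% of all. A match of letters is no proof of a bound site, and a missing match says only that the letters are not in these windows.

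Csrp3 encodes muscle LIM protein, a Z-disc protein known from stretch sensing and cardiomyopathy. It read 10.66, 10.36 and 9.64 in sedentary wild-type, 10.04, 10.59 and 10.60 in sedentary null, 11.30, 11.09 and 11.39 in exercised wild-type and 11.29, 10.96 and 11.04 in exercised null mice. All exercised arrays lay above all sedentary ones, and sedentary wild type was widely spread. The difference was 1.04 ± 0.22 in wild type (2.05-fold, adjusted p 0.0272) and 0.69 ± 0.22 in null muscle (adjusted p 0.217), with an average of 0.86 ± 0.16 (adjusted p 0.00737). The wild-type call held in 13 of 21 other settings. It was lost without sedentary wild type replicate 2 or 3 or exercised wild type replicate 1 or 3. Estimates there were 0.74 to 1.11, with adjusted p of 0.0604 to 0.0886. The tissue scores, the removal of the arrays of female profile and both fits of wild-type arrays alone also lost it. The averaged call was lost with the tissue scores (0.60, adjusted p 0.218) and with the arrays of female profile dropped (0.93). Csrp3 and Ankrd2 are both known from slow fibres; the mean of the 10 slow fibre markers ran from 8.23 to 9.16 on sedentary and from 8.41 to 9.05 on exercised arrays, and none of the 10 was called in any comparison.

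Xirp1 and Flnc encode partners at the Z-disc and at sites of myofibril damage. Flnc is filamin C, the muscle filamin that cross-links actin, and Xirp1 encodes Xin, which binds filamin C and marks muscle under repair. Xirp1 read 9.86, 9.66 and 9.59 in sedentary wild-type, 10.11, 10.24 and 10.41 in sedentary null, 12.21, 11.47 and 11.93 in exercised wild-type and 12.19, 11.98 and 11.54 in exercised null mice. The 4 groups formed 3 levels without overlap, with sedentary wild type lowest, sedentary null next and both exercised groups together above them. The difference after running was 2.17 ± 0.19 in wild type (4.5-fold, adjusted p 6.09e-05) and 1.65 ± 0.19 in null muscle (3.14-fold, adjusted p 0.0016).

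Flnc read 10.91, 10.58 and 10.57 in sedentary wild-type, 10.96, 10.97 and 10.97 in sedentary null, 12.06, 11.55 and 11.75 in exercised wild-type and 11.98, 11.86 and 11.44 in exercised null mice. The order of the groups was that of Xirp1, again with no overlap between the states. The difference was 1.10 ± 0.15 in wild type (2.15-fold, adjusted p 0.00141) and 0.79 ± 0.15 in null muscle (1.73-fold, adjusted p 0.0386). The null call was lost in 12 of 21 other settings, among them the removal of any 1 sedentary null array (adjusted p 0.0759 to 0.148), of sedentary wild type replicate 2 (0.0613), of exercised wild type replicate 3 (0.0511) or of exercised null replicate 1 or 2 (0.0877 and 0.173), with estimates of 0.68 to 1.01 over all settings. The Flnc window below, chr6:29433006-29433255 of the plus strand, holds an M-CAT element, in capitals, 104 to 99 bases before 1 of its 2 starts.
Flnc: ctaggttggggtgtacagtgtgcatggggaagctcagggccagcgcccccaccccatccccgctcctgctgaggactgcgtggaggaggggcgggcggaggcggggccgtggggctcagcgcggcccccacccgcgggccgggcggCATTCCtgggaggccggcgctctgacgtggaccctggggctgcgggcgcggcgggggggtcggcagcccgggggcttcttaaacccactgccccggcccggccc
It is shown beside the 2 windows above as the third gene with these letters.

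Klhl40 and Klhl41 encode kelch proteins that stabilise nebulin, the ruler of the thin filament, and both genes are known from nemaline myopathy. Klhl40 read 8.63, 8.67 and 8.48 in sedentary wild-type, 8.56, 8.87 and 9.07 in sedentary null, 10.74, 9.95 and 10.56 in exercised wild-type and 10.69, 10.59 and 10.10 in exercised null mice. Exercised arrays lay above sedentary arrays with no overlap. The difference was 1.82 ± 0.20 in wild type (3.53-fold, adjusted p 0.00034) and 1.63 ± 0.20 in null muscle (3.09-fold, adjusted p 0.00269). The null call held in 18 of 21 other settings. It was lost with the tissue scores, with the arrays of female profile dropped and with null arrays alone fitted in replicate blocks.

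Klhl41 read 11.29, 11.25 and 11.10 in sedentary wild-type, 11.34, 11.43 and 11.57 in sedentary null, 11.26, 11.37 and 11.56 in exercised wild-type and 11.59, 11.63 and 11.51 in exercised null mice. Exercised and sedentary arrays overlapped in both genotypes. The difference was 0.18 ± 0.09 in wild type (adjusted p 0.318) and 0.13 ± 0.09 in null muscle (95% interval -0.06 to 0.31, adjusted p 0.567). With the tissue scores it changed sign, to -0.05 and -0.10.

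The promoters of the 2 kelch genes are shown because these relatives differed in response and in their letters. Capitals mark an AP-1 element, TGANTCA, in Klhl40 (44 to 38 bases before the start, chr9:121777357-121777606, plus strand) and a MEF2 site in Klhl41 (63 to 54 bases before the start, chr2:69669870-69670119, plus strand).
Klhl40: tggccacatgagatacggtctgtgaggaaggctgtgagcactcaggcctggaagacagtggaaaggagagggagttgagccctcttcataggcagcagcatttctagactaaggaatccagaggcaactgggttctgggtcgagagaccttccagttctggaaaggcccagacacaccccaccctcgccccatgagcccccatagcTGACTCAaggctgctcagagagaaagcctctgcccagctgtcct
Klhl41: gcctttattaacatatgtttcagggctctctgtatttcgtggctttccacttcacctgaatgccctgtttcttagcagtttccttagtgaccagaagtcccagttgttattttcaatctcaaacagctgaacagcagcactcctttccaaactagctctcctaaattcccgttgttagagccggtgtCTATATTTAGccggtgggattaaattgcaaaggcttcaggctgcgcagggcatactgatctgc
AP-1, the dimer of FOS and JUN proteins, has its element in 1 of the 11 windows and in 6.75% of all windows. The MEF2 site, read by a muscle transcription factor, was in 1 of the 11 and in 1.69% of all windows. Both are descriptions of letters, with no measure of binding in these data.

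The last 2 genes act at the membrane. Tnfrsf12a encodes Fn14, the receptor of the cytokine TWEAK, known to be low in resting muscle and induced by injury. It read 7.34, 7.01 and 6.91 in sedentary wild-type, 7.13, 7.24 and 7.62 in sedentary null, 10.03, 9.26 and 9.56 in exercised wild-type and 9.42, 9.45 and 9.0 in exercised null mice. The states stood more than 1 log2 unit apart with no overlap. The difference was 2.53 ± 0.20 in wild type (5.76-fold, 95% interval 4.26 to 7.80, adjusted p 4.06e-05) and 1.96 ± 0.20 in null muscle (3.89-fold, 2.88 to 5.27, adjusted p 0.000899). The null call held in 19 of 21 other settings. It was lost with the arrays of female profile dropped and with null arrays alone fitted in replicate blocks.

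Rrad encodes a small GTPase of the RGK family, known as an inhibitor of L-type calcium channels. It read 6.36, 6.84 and 6.23 in sedentary wild-type, 6.53, 6.58 and 6.88 in sedentary null, 9.80, 7.90 and 8.56 in exercised wild-type and 8.91, 9.29 and 7.90 in exercised null mice. Exercised arrays again lay above all sedentary arrays, and spread over more than 1 log2 unit within each genotype. The difference was 2.28 ± 0.42 in wild type (4.84-fold, 95% interval 2.55 to 9.19, adjusted p 0.0119) and 2.03 ± 0.42 in null muscle (4.1-fold, 2.16 to 7.78, adjusted p 0.0562). The wild-type call held in 19 of 21 other settings. It was lost without sedentary wild type replicate 3 (2.15, adjusted p 0.0575) and with wild-type arrays alone fitted in replicate blocks. The null difference was called without exercised wild type replicate 1 or 2 (2.03, adjusted p 0.0171 and 0.0297) or exercised null replicate 3 (2.44, adjusted p 0.0393), and in the fit of null arrays alone (adjusted p 0.0466).

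**Figure D2:**
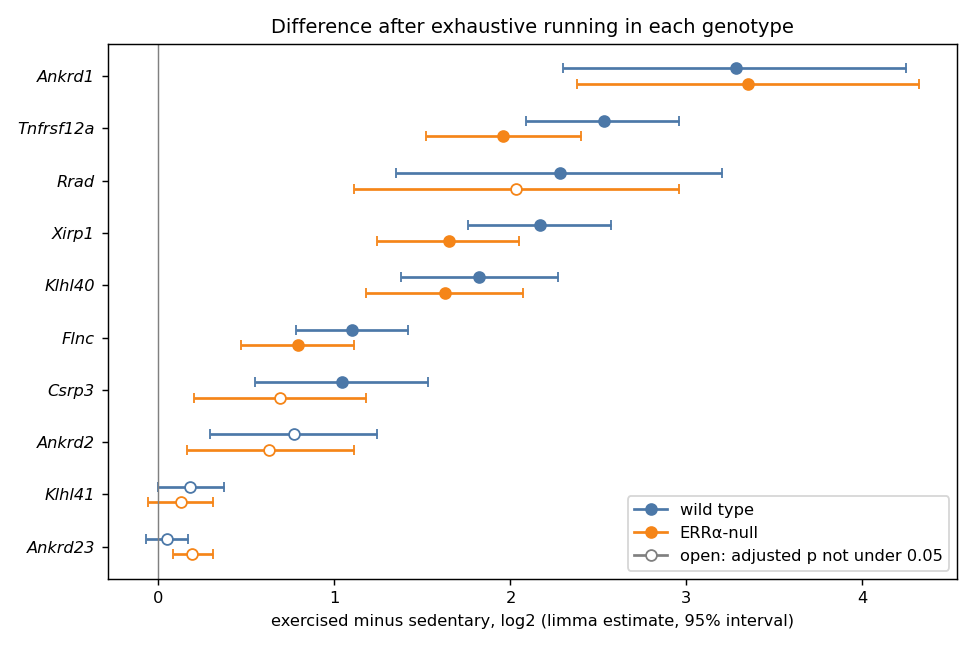
Difference between exercised and sedentary mice (log2, horizontal axis) for each gene in wild-type (blue) and ERRα-null (orange) muscle, as limma's estimate with its 95% interval (n = 3 arrays a group); open points have an adjusted p of 0.05 or more. Ankrd1 has the highest estimate in both genotypes, 3.28 and 3.35, and Klhl41 and Ankrd23 the lowest.

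The second question was whether loss of ERRα changed these genes. None of the 10 was called between genotypes in sedentary or in exercised mice, where 0.0827% and 0.376% of all genes tested were called, nor averaged over the states, where 1.43% were. At an unadjusted p under 0.05 the numbers were 2 in sedentary, 1 in exercised and 3 averaged, and the shares of all genes tested 8.22%, 10.4% and 12.4%. These comparisons use the same arrays as those of running above.

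In sedentary muscle Xirp1 was 0.55 ± 0.19 higher in null mice (95% interval 0.14 to 0.96, adjusted p 0.417), Klhl41 0.23 ± 0.09 higher (0.05 to 0.42, adjusted p 0.472) and Flnc 0.28 ± 0.15 higher (-0.04 to 0.60, adjusted p 0.674). In these 3 the null arrays lay above the wild-type arrays with no overlap, as they did for 6.91% of all genes tested. The 10 slow fibre markers had a median difference of 0.54 in the same comparison, with a mean level of 8.23 to 8.85 on wild-type and 8.71 to 9.16 on null arrays; none was called, and their part in the differences of Xirp1, Klhl41 and Flnc was not tested. Ankrd2 and Ankrd23 had negative estimates of -0.43 and -0.11, both with an adjusted p of 0.647. Ankrd1, with a difference of 0.07, had an interval from -0.91 to 1.04, so with 3 arrays a group changes within these bounds were not excluded. The intervals of 8 of the 10 included 0.

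After running, Ankrd2 was -0.57 ± 0.22 in null against wild-type mice (95% interval -1.04 to -0.09, adjusted p 0.369). Its 3 null arrays lay below the 3 wild-type arrays, as did those of 9.31% of all genes tested. Klhl41 differed by 0.18 (adjusted p 0.516) and Tnfrsf12a by -0.32 (adjusted p 0.668). Ankrd1 differed by 0.14 (-0.84 to 1.11), a value whose sign turned without exercised wild type replicate 2 (-0.42) or exercised null replicate 1 (-0.25). It was 1.3, with an adjusted p of 0.556, when the arrays of female profile were dropped. Averaged over the states, Ankrd2 was -0.50 ± 0.15 (adjusted p 0.166), Klhl41 0.21 ± 0.06 (adjusted p 0.135) and Xirp1 0.29 ± 0.13 (adjusted p 0.397). With the tissue scores in the fit Ankrd2 was called, at -0.65 with an adjusted p of 0.0255.

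The third question was whether the response to running differed between the genotypes. The estimate of the response was smaller in null muscle for 8 of the 10, and no such share was computed over all genes. Among these 8 the sign of the interaction turned in 3 of 19 other settings for Ankrd2 and for Klhl41, in 2 for Rrad and in 1 for Klhl40. The interaction was called for none of the 10, where 0.00751% of all genes tested were. None had an unadjusted p under 0.05, where 5.12% of all genes did. The differences nearest the threshold were Tnfrsf12a at -0.57 ± 0.28 (95% interval -1.18 to 0.05), Xirp1 at -0.52 ± 0.26 (-1.09 to 0.05) and Ankrd23 at 0.14 ± 0.08 (-0.02 to 0.31), each with an adjusted p of 0.997, and Flnc was at -0.31 ± 0.21 (-0.77 to 0.14, adjusted p 0.999). For Xirp1 and Flnc the exercised means of both genotypes were alike, 11.87 and 11.90 for Xirp1 and 11.79 and 11.76 for Flnc, and the sedentary means were 9.70 and 10.25, and 10.69 and 10.97. For Tnfrsf12a the sedentary means were 7.09 and 7.33 and the exercised means 9.61 and 9.29. The calls in 7 and in 5 genes therefore do not show that the genotypes responded differently.

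Within groups, the genes tended to be low on the same arrays. Exercised wild type replicate 2 had the lowest value of its group for 8 of the 10, all but Ankrd23 and Klhl41, and 37.1% of all genes tested were lowest there. Exercised null replicate 3 was lowest for 8, all but Ankrd23 and Csrp3, beside 26.7% of all genes. Sedentary null replicate 1 was lowest for all 10, beside 46.5%, and sedentary wild type replicate 3 for 9, beside 34.2%. Centred on each gene's own mean, the 10 genes averaged 1.01, 0.38 and 0.84 on the exercised wild-type arrays and 0.91, 0.77 and 0.33 on the exercised null arrays, and between -0.97 and -0.43 on sedentary arrays. Only exercised null replicate 3, of the 2 lowest exercised arrays, was of female profile. Of all arrays, exercised wild type replicate 2 had the highest neutrophil list mean (5.47) and the lowest endothelium list mean (7.41). Sedentary null replicate 1 had the highest lymphocyte (8.40) and smooth muscle (9.19) list means. Other arrays were extreme for other lists, and the part of such traits was not tested.

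**Figure D3:**
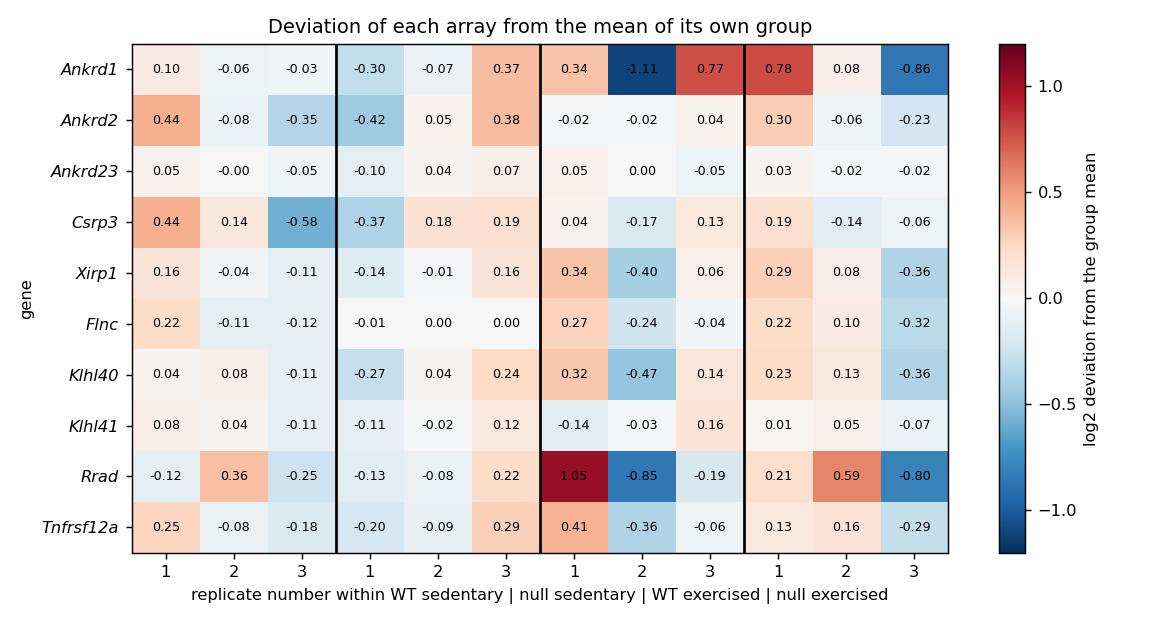
Deviation of each array from the mean of its own group (log2, colour and printed value) for the 10 genes (rows) on 12 arrays (columns, by replicate number in each group). Ankrd1 and Rrad deviate most, by -1.11 and -0.85 on exercised wild type replicate 2 and by -0.86 and -0.80 on exercised null replicate 3, where most other genes are also below their group mean.

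As a description over 12 arrays that share the states, the levels of Xirp1 and Klhl40, of Xirp1 and Flnc and of Ankrd1 and Klhl40 each correlated at 0.99. With the group means removed these correlations were 0.94, 0.92 and 0.90. Ankrd2 went with Csrp3 (0.82, and 0.85 with the group means removed) and with Ankrd23 (0.79 and 0.81). Klhl41 and Rrad had correlations of 0.47 and 0.03. The genes outside the list whose levels were most like the mean of the 10 were Hbegf, a growth factor of the EGF family (0.991), Rbm20, the splicing factor of titin (0.984), and Atf3, a stress-induced transcription factor (0.98). Averaged over genotypes, Hbegf was 1.63 ± 0.18, Rbm20 0.74 ± 0.06 and Atf3 2.67 ± 0.21 higher after running (adjusted p 0.000214, 3.2e-05 and 2.01e-05).

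The nearest gene outside the list was Rbm20 for Ankrd1 (0.989), Atf3 for Xirp1 (0.984) and for Klhl40 (0.988), Hbegf for Rrad (0.971), and Ccn1, a matrix protein and YAP target, for Flnc (0.968). Tnfrsf12a was nearest to Pvr, a nectin-like adhesion receptor (0.982), ahead of Rbm20 (0.979) and the inducible heat shock gene Hspa1a (0.978). The remaining genes had other neighbours: the co-chaperone gene Dnajb4 for Ankrd2 (0.914), the expressed-sequence locus AW551984 for Csrp3 (0.971), the matrix gene Fbln1 for Ankrd23 (0.926) and Serbp1 for Klhl41 (0.889). Predicted genes and cDNA clones (symbols of the Gm, LOC and Rik kinds) were left out.

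Lists of the pathways these proteins belong to were counted in the averaged exercise comparison, where 3.14% of all genes tested were called higher, 3.43% were called lower and the median was -0.01; no list was tested against the others. Of 26 titin and Z-disc genes 1 rose, the titin-binding Mypn (0.23 ± 0.04, adjusted p 0.00367), and 1 fell, the titin cap gene Tcap (-0.33 ± 0.05, adjusted p 0.00118), with a median of 0.06. Myot and Cavin4 were at 0.12 and 0.27 (adjusted p 0.0553 and 0.0573). Of 16 thin filament and nemaline myopathy genes none passed, and the median was 0.01; Lmod2, Myo18b, Tmod1 and Klhl31 came nearest, at 0.26, 0.15, 0.16 and -0.15 (adjusted p 0.0642, 0.0688, 0.112 and 0.149). In wild type alone, where 2.22% of all genes tested were called higher, 2 of the 16 were, the actin nucleator gene Lmod2 (0.57, adjusted p 0.0129) and the myosin gene Myo18b (0.26, adjusted p 0.0485). Myo18b was called in only 2 of 21 other settings, with an adjusted p of 0.075 under the replicate block, and Lmod2 in 15 of 21. The Lmod2 call was lost without sedentary wild type replicate 2 or 3 or exercised wild type replicate 3. The tissue scores, the removal of the arrays of female profile and a replicate block over wild-type arrays alone also lost it. Of 13 sarcomere folding and filamin turnover genes 7 rose and none fell, with a median of 0.44. They included the small heat shock protein gene Hspb1 (1.29 ± 0.09, adjusted p 6.56e-06), the chaperone genes Hsp90aa1 (1.09 ± 0.10, adjusted p 4.31e-05) and Hspa8 (0.44 ± 0.04, adjusted p 5.14e-05) and Bag3, the co-chaperone that clears damaged filamin (0.57 ± 0.05, adjusted p 2.57e-05). In null muscle alone, where 0.383% of all genes tested were called higher, 5 of the 13 were. Cryab was among them (0.41 ± 0.07, adjusted p 0.024), a call held in 10 of 21 other settings. The call of Hsp90aa1 (0.72 ± 0.14, adjusted p 0.0396) held in 7 of 21, with an adjusted p of 0.0554 under the replicate block. Those of Hspb1, Bag3 and Hspa8 held in 19, 16 and 15.

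Of 17 costamere and filamin partner genes 1 rose, the actin anchor vinculin Vcl (0.28, adjusted p 0.017), and 1 fell, Lims1 (-0.32, adjusted p 0.0351), with a median of 0.05; Itgb1 and Ky were at 0.11 and -0.16 (adjusted p 0.226 and 0.273). Of 19 genes of YAP, TEAD and SRF signalling 2 rose, Ccn1 (1.29 ± 0.19, adjusted p 0.00175) and the kinase gene Lats2 (0.26, adjusted p 0.0268), with a median of 0.01. Tead1 and Yap1 were at -0.21 and 0.18 (adjusted p 0.0962 and 0.109). Of 11 other genes of TWEAK and Fn14 signalling 2 rose, the kinase gene Map3k14 (0.63 ± 0.10, adjusted p 0.00261) and the chemokine gene Ccl2 (0.96 ± 0.19, adjusted p 0.00903), with a median of 0.00. Birc2 and Birc3 were at -0.30 and -0.42 (adjusted p 0.0986 and 0.121). Of 8 genes of RGK proteins and the L-type calcium channel 1 rose, Gem, a relative of Rrad (0.38 ± 0.08, adjusted p 0.0171), with a median of 0.10. Cacnb1, Rem2 and Cacna1s were at 0.18, 0.11 and 0.09 (adjusted p 0.149, 0.278 and 0.369).

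**Figure D4:**
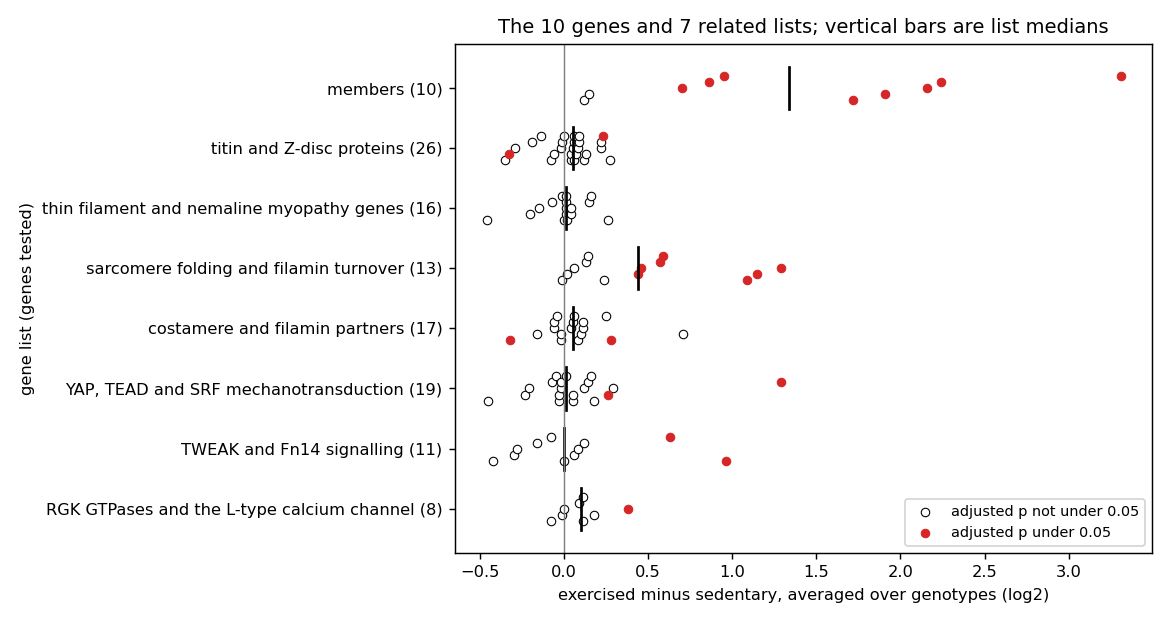
Difference between exercised and sedentary mice averaged over genotypes (log2, horizontal axis) for the 10 genes and the tested genes of 7 related lists (rows, number tested in brackets); red points have an adjusted p under 0.05, white points do not, and vertical bars are medians. The median was 1.33 for the 10 genes, 0.44 for folding and filamin turnover and between 0.00 and 0.10 for the other lists.

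Between genotypes after running, 2 genes of these lists were called, Hsp90aa1 (-0.81, adjusted p 0.0358) and the Z-disc gene Pdlim3 (0.38, adjusted p 0.0424). Of all genes tested, 0.376% were called there. Blocking on the replicate number gave them an adjusted p of 0.0519 and 0.0516. Over 21 other settings the call held in 9 for Hsp90aa1 and in 4 for Pdlim3. Pdlim3 was also called averaged over the states (0.35, adjusted p 0.00482), where 1.43% of all genes tested were, and in 18 of 19 other settings.

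Among markers of other cells, the 8 satellite cell markers averaged 6.42 to 6.69 on sedentary and 6.70 to 6.93 on exercised arrays, and the median difference of the 7 tested was 0.12. Of these 7 only Sdc4, a cell surface proteoglycan, was called higher (0.93 ± 0.12, adjusted p 0.000914). Pax7, the defining transcription factor of these cells, ran from 5.99 to 6.61 over all arrays. Myod1 of the same list was not called. In wild type it read 7.42 to 8.49 on sedentary and 8.63 to 9.28 on exercised arrays, with no overlap. In null muscle its sedentary and exercised ranges overlapped. Of the 6 heart markers tested only Actc1, the cardiac actin that regenerating skeletal muscle also makes, was called (1.5 ± 0.34, adjusted p 0.0207). In the averaged exercise comparison the macrophage gene Csf1r was called lower (-0.42, adjusted p 0.042) and the endothelial gene Flt1 higher (0.29, adjusted p 0.0406). No gene of the muscle fibre, slow fibre, smooth muscle, liver, fat, lymphocyte or fibroblast lists was called there. No neutrophil marker was bright enough over all arrays to be tested. The mean of the neutrophil list was 5.47 on exercised wild type replicate 2 and 4.30 to 4.63 on all other arrays. Between genotypes the immunoglobulin gene Ighm of the lymphocyte list was called lower in null mice after running (-2.58 ± 0.38, adjusted p 0.0227) and averaged over the states (-1.99 ± 0.27, adjusted p 0.00461). Ighm was the only 1 of the 4 tested genes of that list called, and the list medians were -0.09 and -0.31. The part of these cells in the differences of the 10 genes was not tested, beyond the fits with scores of the liver, fat and lymphocyte lists.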

How the data were processed

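Total RNA of gastrocnemius was labelled with biotin and read on 12 arrays, 3 for each of 4 groups. The authors deposited log2 values per probeset; the submitters' processing notes name Expression Console, RMA and the Transcriptome Analysis Console, with versions and annotation build not given in the sources used here. Of 41345 probesets 23521 carried 1 gene symbol, 1814 several and 16010 none, and 23328 matched RefSeq. The probeset with the highest mean stood for each of 22180 genes, and the 40% with the lowest mean (under 5.323) were left out, leaving 13308. RMA compresses differences of dim and very bright probesets. Precision is limited by having 3 arrays a group.

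Group means were fitted with limma 3.58.1 in R 4.3.3 (eBayes with an intensity trend, 8 residual degrees of freedom, two-sided, Benjamini-Hochberg over all 13308 genes, called under 0.05), and the fit was tested on simulated data. Alternatives were a replicate block, no trend, no filter, the mean of a gene's probesets, median centring, scores of liver, fat and lymphocyte markers as covariates, leaving out arrays of female profile or each array in turn, and fits of the arrays compared alone. A block within the arrays compared was added after seeing the data.

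Replicate numbers were checked as pairs by correlating deviations from group means over genes. Same-numbered exercised wild-type and null arrays correlated at 0.31, 0.21 and 0.17, a hint of pairing from the data; no label says what the numbers share. Between the sedentary genotypes such arrays correlated at -0.23, -0.28 and 0.35. Between the states they did so at 0.27, 0.06 and 0.16 in wild type and at 0.04, -0.15 and -0.01 in null muscle. Differently numbered sedentary arrays, wild type replicate 1 and null replicate 2, correlated at 0.63. The null arrays that were fitted alone in blocks thus gave no sign of pairing by number.

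The members, the 7 pathway lists and the 12 marker lists were chosen with earlier results of these data known. The text names all 10 members, Esrra, the pathway genes with the smallest p in the averaged exercise comparison (up to 4 a list) and those called where 5 or fewer of a list were, the nearest genes by correlation, and called marker genes. Xist, Nppa, Pax7 and Myod1 are named besides. Promoter sequences are RefSeq's, for GRCm38.p6.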

Additional observations from a re-analysis of the deposited data

How the results depend on the processing

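The count of called genes in wild-type exercise was 7 and ran from 5 to 8 when 1 array was left out and from 5 to 7 in other settings. In null exercise it was 5 and ran from 4 to 6 when 1 array was left out; it was 2 with the liver, fat and lymphocyte scores, 2 without the arrays of female profile, and 0 with a replicate block over only the arrays compared. Averaged over genotypes it was 8 whichever array was left out. With the replicate block over all arrays the counts were 7, 5 and 8 for exercise and 0 for genotype and for the interaction, so the block changed no call of the 10 genes there. For genotype averaged over states 1 gene, Ankrd2, was called with the tissue scores, and none in the other settings. No member was called for genotype within a state or for the interaction in any setting run. The cause of these changes was not tested, except that leaving out arrays leaves fewer samples.

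Signs that changed were of small estimates. Over all members and settings they changed most often for genotype after exercise (17 values), genotype averaged over states (16) and the interaction (12), and only some are given here. With the tissue scores Klhl41 was -0.05 in wild-type, -0.10 in null and -0.07 in averaged exercise, and Ankrd1 -0.10 for genotype in sedentary and -0.0043 in exercised mice. Leaving out 1 array, Ankrd1 ranged from -0.12 to 0.21 for genotype in sedentary and from -0.42 to 0.57 in exercised mice, with -0.25 without exercised null replicate 1; dropping the arrays of female profile gave 1.3 there. Over all settings the wild-type exercise difference ran from 2.89 to 3.83 for Ankrd1, 2.32 to 2.71 for Tnfrsf12a, 2.00 to 2.37 for Xirp1 and 1.75 to 3.11 for Rrad. Of the pathway genes named, Tcap and Vcl lost the averaged call once the arrays of female profile were dropped (0.0537 and 0.121, as adjusted p), Ccn1 and Ccl2 with the tissue scores (0.0746 and 0.0835), and Mypn and Gem in both settings, whereas Lims1 was called in 7 and Lats2 in 9 of 19 settings. With 3 arrays a group, intervals such as that of Ankrd1 between genotypes are wide, and genes at low signal carry little information.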
